A study of Homo sapiens with 12 samples.

Results

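The genes described here encode the ephrins and Eph receptors, the semaphorins with their plexin and neuropilin receptors, the netrins and UNC5 receptors, the SLIT ligands and ROBO receptors, and the repulsive guidance molecules (RGM). They were picked by a pattern of gene symbols, with earlier results of these data known, and 48 of the 11529 genes of the expression table matched, of which 24 encode ligands and 22 receptors. The other 2 matched by name only: UNC50, which encodes a Golgi protein and no netrin receptor, and UNC5B-AS1, an antisense RNA. In the gene annotation (GENCODE release mapped to GRCh37), 75 protein-coding genes carry such symbols, of which 47 were members and 28 are not analysed here. The authors kept genes whose FPKM (fragments per kilobase of transcript, scaled to the mapped fragments of the sample) had an average and an SD of at least 1 across the samples, so that the members are those that were expressed and varied in these cells.

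RNA was sequenced from human triple-negative breast cancer cells of a pair of lines, MDA-MB-468, which the study assigned to the basal/stem-like subtype, and MDA-MB-231, assigned to the mesenchymal-like subtype. Each line was measured as a control, titled wild type, and after knock-out (KO) of SMARCA4, the ATPase of the SWI/SNF chromatin remodelling complex. There were 3 samples in each of the 4 groups and 12 in all. KO cells were polyclonal pools, made with a lentiCRISPR-v2 vector that carried 1 guide RNA against SMARCA4 and selected with puromycin. The sample titles give the controls as wild type and the sample descriptions as control, and neither names a control vector. The protein blots of the study had both parental cells and cells with a nontargeting control vector. Which of these was sequenced cannot be told from the labels. A lower level in such a pool cannot tell fewer expressing cells from less RNA per cell. The labels do not say that the samples of a group came from separate cultures, so the p-values measure the spread between these samples.

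Ephrins are membrane-bound ligands for the Eph receptor tyrosine kinases. Semaphorins act through plexins, with neuropilins as co-receptors for most secreted class 3 members, while netrins bind UNC5 receptors and SLIT proteins bind ROBO receptors. These families were described in axon guidance, where they attract or repel growing axons, and epithelial and tumour cells use them for cell contact, migration and vessel growth.

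SMARCA4 was at 6.61, 6.62 and 6.68 in the MDA-MB-468 controls and at 5.35, 5.48 and 5.61 in the KO samples, all levels on the deposited log2(FPKM + 1) scale. In MDA-MB-231 it was at 6.10, 6.18 and 6.09 in the controls and 4.46, 4.64 and 4.56 in KO. The KO samples lay below the controls in both lines, at 44.3% and 32.7% of the control FPKM. Read depth is not given, and samples of 1 group correlated over genes with r of 0.989 to 0.995. Of 10 epithelial marker genes, 10 were higher in control MDA-MB-468, and all 8 analysed of 10 mesenchymal markers were higher in control MDA-MB-231. Of the markers of other cells, 0 of 6 fibroblast, 2 of 6 leukocyte (CD14 and CD68) and 1 of 5 endothelial genes (ENG) were analysed. With KO in MDA-MB-231, the summed FPKM of the mesenchymal markers ranged from 1804 to 1960 against 2237 to 2500 in the controls, that of the epithelial markers from 1241 to 1398 against 833.5 to 1254, and CD14 was 1.18 higher. By limma, 2 epithelial markers were called higher there, CDH1 by 0.54 (adjusted p = 0.0442) and ELF3 by 1.14 (adjusted p = 0.0312). Of the mesenchymal markers 0 were called. In MDA-MB-468, the mesenchymal sum ranged from 165.0 to 175.9 against 121.7 to 140.2 and the epithelial sum from 6638 to 6931 against 5643 to 6124. Few genes carried these sums, as CAV1 went from 19.34 to 55.87 FPKM there and KRT8 from 1604 to 2266. CDH1, CLDN7, EPCAM, ESRP1 and FN1 were lower in that line. None of these markers was called in MDA-MB-468, with median differences of 0.03 (mesenchymal) and 0.054 (epithelial). The part of these shifts in the results below was not tested.

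**Figure D1:**
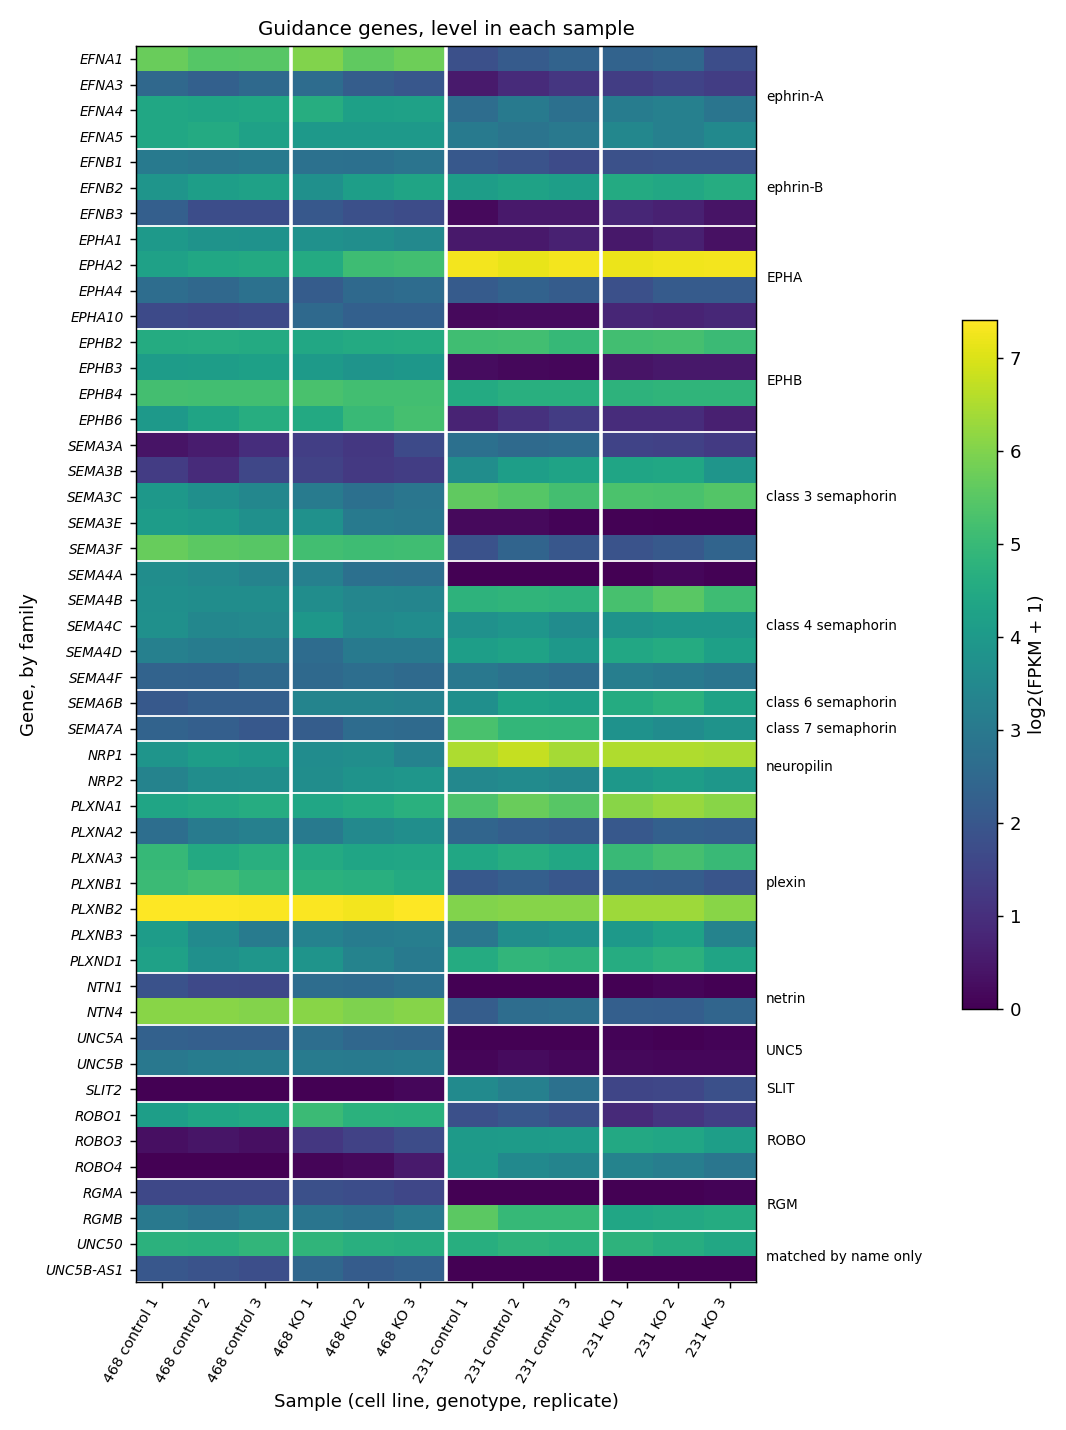
Level of the 48 genes (rows, by family) in the 12 samples (columns), as colour on the log2(FPKM + 1) scale. Many rows differ between the lines: EPHA2 is bright in MDA-MB-231 samples, where SEMA4A, NTN1 and UNC5A are near 0, and SLIT2 and ROBO4 are near 0 in MDA-MB-468 controls.

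SMARCA4 KO changed 4 guidance genes of MDA-MB-468 and 8 of MDA-MB-231, and EPHA10 was called in both lines. A gene was called when its adjusted p was under 0.05 over the 11529 genes and its difference over 0.5 on the log2 scale. In MDA-MB-468, 4 of 48 members rose, namely SEMA6B, ROBO3, NTN1 and EPHA10, which is 8.33% of members against 1.33% of all genes tested. There 0 of 48 fell, where 0.815% of all genes did. At an unadjusted p under 0.05 in limma, 10 of 48 were lower, a larger share than the 11% of all genes. At that limit 11 of 48 were higher, where 14.1% of all genes were. In MDA-MB-231, 4 of 48 rose (EPHA10, PLXNA1, PLXNA3 and NRP2), where 2.39% of all genes rose. Another 4 fell (SLIT2, SEMA7A, SEMA3A and ROBO1), where 1.31% of all genes fell. Over all 48 members the median difference was -0.02 for MDA-MB-468 (0.02 over all genes) and 0.04 for MDA-MB-231 (-0.01 over all genes). By role, the calls in MDA-MB-468 were 2 ligands and 2 receptors, whereas in MDA-MB-231 the 4 genes that rose were all receptors and the 4 that fell were 3 ligands and 1 receptor.

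The calls differed in how far they held when 1 sample was left out. In MDA-MB-468, leaving out control replicate 2, KO replicate 2 or KO replicate 3 ended all 4 calls. These runs called only 0, 0 and 5 of all genes, in place of 247. Leaving out control replicate 3 kept SEMA6B (12 genes called), and leaving out control replicate 1 kept SEMA6B and NTN1 (27 genes). Leaving out KO replicate 1 kept all 4 (474 genes). The differences themselves ranged from 1.07 to 1.16 for SEMA6B over these 6 runs. Those of ROBO3 ranged from 0.99 to 1.25, of NTN1 from 0.92 to 1.05 and of EPHA10 from 0.62 to 0.75. In MDA-MB-231, SEMA3A, SEMA7A and EPHA10 were called without any 1 of the 6 samples. SLIT2 lost its call without control replicate 2, KO replicate 1 or KO replicate 2, and the other calls were lost without 4 or 5 of the 6 samples. A block by the p number of the sample descriptions left 0 calls in either line. In MDA-MB-231 this number is shared by samples of the same replicate number. In MDA-MB-468 the p numbers of controls and KO samples are offset. KO replicate 1 and control replicate 3 there had no match and were put in 1 block, which is thus no pair by p number. The differences also moved with transcript GC content over genes, with Spearman's rho of 0.304 for MDA-MB-468 and 0.285 for MDA-MB-231. After a correction for GC content and length, the 4 rises in MDA-MB-468 and the 4 falls in MDA-MB-231 passed, while the 4 rises in MDA-MB-231 dropped to between 0.44 and 0.48, under the limit of 0.5, with adjusted p from 0.00846 to 0.0236.

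**Figure D2:**
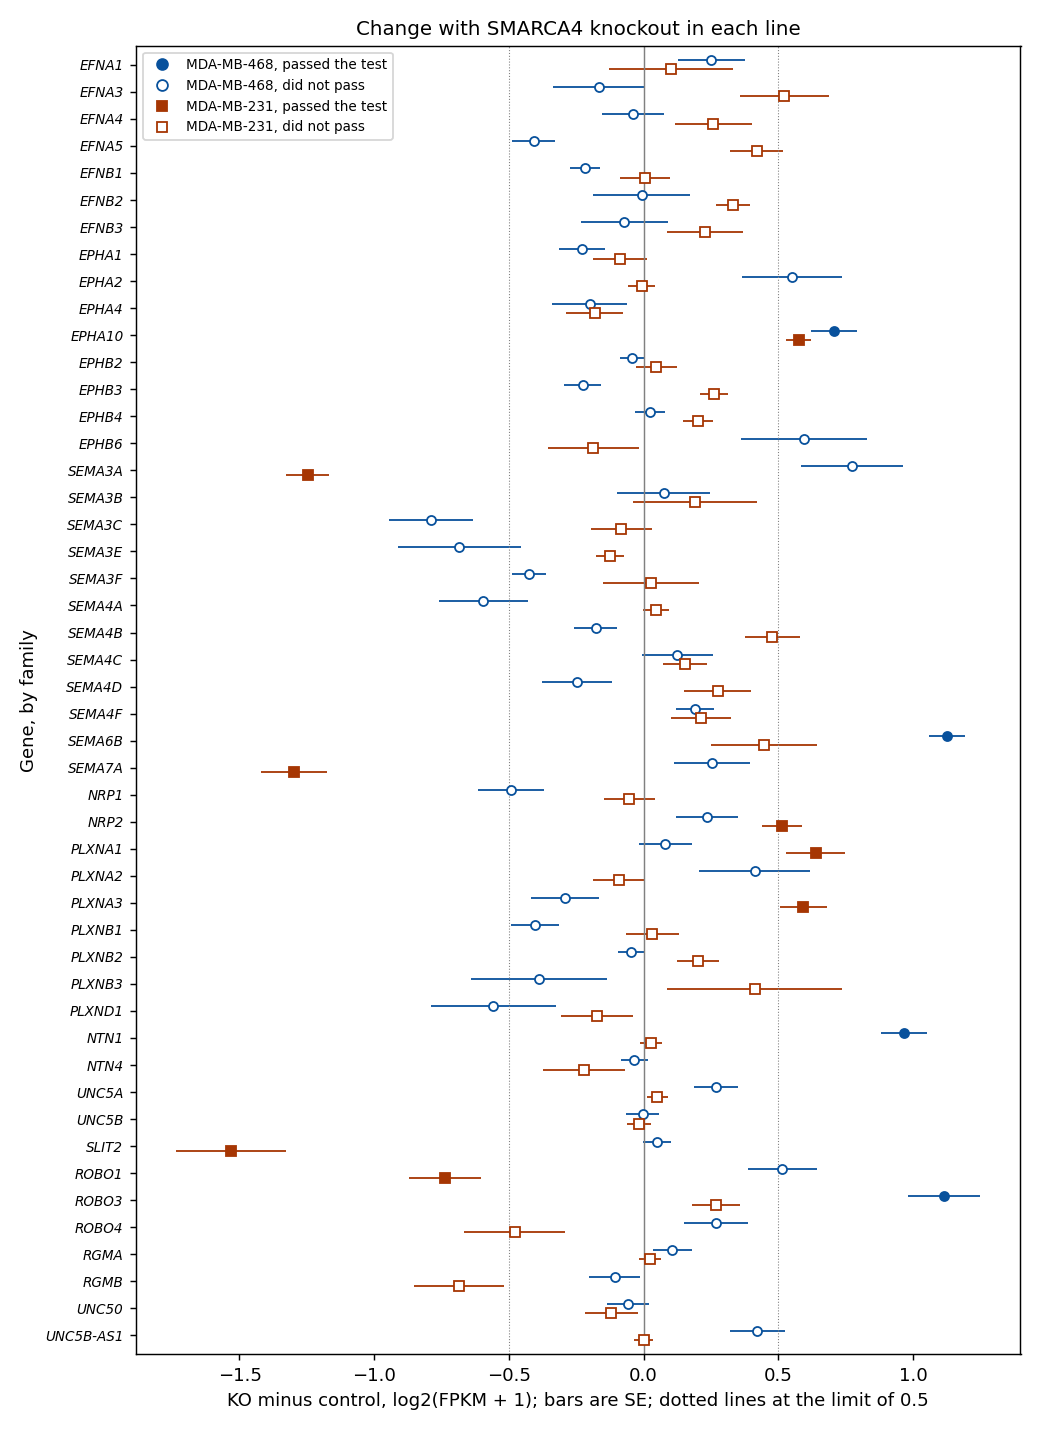
KO minus control for each member on the log2(FPKM + 1) scale, as circles for MDA-MB-468 and squares for MDA-MB-231, with SE bars; filled symbols passed the test and dotted lines mark 0.5. SLIT2, SEMA7A, SEMA3A and ROBO1 lie to the left in MDA-MB-231, and SEMA6B, ROBO3 and NTN1 to the right in MDA-MB-468.

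Sequence upstream of the genes that fell in MDA-MB-231 is shown because they moved together in that line. The RefSeq promoter table (GRCh38.p14) held SLIT2 with 1 start, SEMA7A and ROBO1 with 2 starts each, and not SEMA3A. The window of the second SEMA7A start overlapped an annotated exon of SEMA7A and is not printed. The 250 bases before each of the other starts matched 1 place each in GRCh37, at chr4:20253278-20253527 on the plus strand for SLIT2, and on the minus strand at chr15:74726300-74726549 for SEMA7A and at chr3:79817149-79817398 and chr3:79068610-79068859 for ROBO1. None of the 4 windows printed overlapped an annotated exon. Capitals mark matches, on either strand, to a CCAAT box, to the letters GGGCGG (GC box) or to the letters TATANA, called TATA-like here. The letters GGAATG (TEAD motif) and TGACTCA (AP-1 motif) were searched as well.
SLIT2: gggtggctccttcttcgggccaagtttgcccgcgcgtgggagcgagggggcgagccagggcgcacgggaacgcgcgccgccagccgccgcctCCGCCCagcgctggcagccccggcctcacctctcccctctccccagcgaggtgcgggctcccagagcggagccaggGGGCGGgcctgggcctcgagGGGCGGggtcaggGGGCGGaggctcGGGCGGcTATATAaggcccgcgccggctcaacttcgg
SEMA7A: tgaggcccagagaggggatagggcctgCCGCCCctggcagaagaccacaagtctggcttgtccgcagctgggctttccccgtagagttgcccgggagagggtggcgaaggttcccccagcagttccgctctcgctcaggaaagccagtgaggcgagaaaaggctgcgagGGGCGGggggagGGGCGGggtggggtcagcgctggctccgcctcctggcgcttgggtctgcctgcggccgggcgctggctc
ROBO1, upstream start: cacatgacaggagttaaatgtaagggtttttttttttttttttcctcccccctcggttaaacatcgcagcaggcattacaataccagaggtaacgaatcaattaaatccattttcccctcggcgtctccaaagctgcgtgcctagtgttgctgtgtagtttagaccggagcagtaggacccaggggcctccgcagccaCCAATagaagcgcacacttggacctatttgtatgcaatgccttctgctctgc
ROBO1, downstream start: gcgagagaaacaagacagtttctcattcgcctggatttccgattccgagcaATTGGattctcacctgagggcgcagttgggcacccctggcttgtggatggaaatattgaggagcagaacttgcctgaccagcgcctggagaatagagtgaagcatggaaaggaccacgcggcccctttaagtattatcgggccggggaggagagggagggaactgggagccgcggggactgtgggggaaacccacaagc
The windows of SLIT2 and SEMA7A were rich in G and C, at 77.2% and 70.0%, and held 5 and 3 GC boxes (77.6% and 4 at the SEMA7A start that is not printed), while those of ROBO1 were at 48.0% and 56.8% and held 1 CCAAT box each and 0 GC boxes. Of SLIT2, SEMA7A and ROBO1, only SLIT2 had a TATA-like match, and these letters were widened after the sequences were seen. SEMA3A, which also fell, had no window to search. Over all 35116 windows of the table the median GC content was 58.0%, and a GC box was present in 42.6%, a CCAAT box in 32.0%, a TATA-like motif in 17.7%, a TEAD motif in 11.9% and an AP-1 motif in 4.2%. The TEAD and AP-1 letters had 0 matches in the windows of SLIT2, SEMA7A and ROBO1. PLXNA1, PLXNA3 and NRP2, which rose, had windows with 84.4%, 82.8% and 70.0% G and C. No motif searched was present in all windows of SLIT2, SEMA7A and ROBO1.

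Ephrin-A genes were expressed at a summed FPKM of 90.65 in control MDA-MB-468 and 17.13 in control MDA-MB-231, and their EPHA receptors at 41.03 and 155.5. In summed RNA of the genes analysed, ligand thus exceeded receptor in the first line and receptor exceeded ligand in the second. EPHA2, a receptor tyrosine kinase abundant in many carcinomas, made up most of the receptor sum in MDA-MB-231, with 151.2 FPKM against 20.07 in MDA-MB-468. All 4 ephrin-A genes and the receptors EPHA1 and EPHA10 were higher in MDA-MB-468 controls, and EPHA2 was 2.86 lower there. EFNA1, EFNA3 and EFNA4 lie side by side on chromosome 1, with 9284 and 40338 bp between them, and reads of an annotated EFNA4-EFNA3 read-through could be split between these genes.

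EPHA10 (chr1:38179552-38230805, GRCh37), an Eph receptor whose kinase domain is regarded as inactive, rose in both lines. In MDA-MB-468 its level was 1.67, 1.59 and 1.68 in the controls and 2.52, 2.27 and 2.26 in KO. In MDA-MB-231 it was 0.19, 0.23 and 0.23 in the controls and 0.80, 0.73 and 0.84 in KO. Each KO sample lay above each control in both lines, although the FPKM of MDA-MB-231 controls averaged only 0.16. The difference was 0.71 ± 0.08 (SE, n = 3 against 3, adjusted p = 0.0233) and 0.58 ± 0.05 (adjusted p = 0.00732). The difference between the lines was 0.13 with an adjusted p of 0.424 on this scale, which adds 1 to FPKM. The KO samples were at 194% of the control FPKM for MDA-MB-468 and at 456% for MDA-MB-231. With 0.1 added in place of 1, the rises were 0.92 and 1.67, and EPHA10 passed the test between the lines. Whether its rise differed between the lines thus depended on the value added.

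EFNA5 (chr5:106712595-107006638), a ligand for EPHA receptors, changed differently with KO in each line. Its level was 4.42, 4.53 and 4.25 in MDA-MB-468 controls and 3.98, 3.98 and 4.01 in KO, and 3.07, 2.84 and 3.0 in MDA-MB-231 controls and 3.42, 3.23 and 3.51 in KO. All KO samples were below the controls in the first line and above them in the second. Neither change was called (-0.41, adjusted p = 0.0549, and 0.42, adjusted p = 0.0501), whereas the difference between them was, at -0.83 ± 0.13 (adjusted p = 0.00273). EFNA1, EFNA3 and EFNA4 differed with KO by between -0.16 and 0.52 and did not pass in either line. EPHA2 was 0.55 higher in MDA-MB-468 KO (adjusted p = 0.149) and differed by -0.01 in MDA-MB-231.

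Ephrin-B genes and EPHB receptors were closer between the lines, at a summed FPKM of 25.89 and 20.22 for the ligands and 93.88 and 58.28 for the receptors, the MDA-MB-468 controls given first. EFNB2, which binds EPHB4 in vessels, differed between the controls by -0.10 (adjusted p = 0.495), and EPHB2 and EPHB4 by -0.55 and 0.56. EPHB3 showed the widest gap of the members on this scale, with 3.97 ± 0.07 between the controls, whereas with 0.1 in place of 1 added to FPKM it was 6.19, less than the size of the ROBO4 (-6.73) and SLIT2 (-6.34) gaps. It was at 4.11, 4.14 and 4.21 in MDA-MB-468 controls and 4.04, 3.82 and 3.91 in KO, and at 0.24, 0.16 and 0.14 in MDA-MB-231 controls and 0.38, 0.49 and 0.46 in KO. KO samples lay below the controls where the gene was expressed and above them where it was near 0, and the difference between the lines was -0.49 ± 0.10 (adjusted p = 0.00869). Neither change reached 0.5 (-0.23 and 0.26). EPHB6, a receptor without kinase activity, was 0.59 higher in MDA-MB-468 KO with overlapping samples (adjusted p = 0.191), and it passed there when the replicate number was a block. EFNB2 was 0.33 higher in MDA-MB-231 KO (adjusted p = 0.0331), below the limit of 0.5.

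Class 3 semaphorins are secreted and signal through neuropilins with type A plexins. Control MDA-MB-468 expressed mainly SEMA3F, SEMA3E and SEMA3C, with 46.53, 14.42 and 12.09 FPKM, and control MDA-MB-231 mainly SEMA3C and SEMA3B, with 42.25 and 15.62. The family thus differed in kind more than in sum, which was 75.07 against 66.57 FPKM. SEMA3E, which binds PLXND1 without a neuropilin, was at 4.08, 4.00 and 3.73 in MDA-MB-468 controls and at 0.20, 0.19 and 0.07 in MDA-MB-231 controls, a difference of 3.79 ± 0.17 (adjusted p = 5.25e-10). NRP1, the receptor subunit for SEMA3A, was at 93.83 FPKM in MDA-MB-231 and 15.15 in MDA-MB-468. NRP2, the subunit for SEMA3F, was at a like level in both, and its difference was 0.05 (adjusted p = 0.655).

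SEMA3A (chr7:83585093-84122040), the prototype collapsing semaphorin, fell in MDA-MB-231. Its level was 2.74, 2.58 and 2.63 in the controls and 1.51, 1.43 and 1.27 in KO. In MDA-MB-468 it was 0.38, 0.57 and 0.97 in the controls and 1.39, 1.19 and 1.66 in KO. The samples did not overlap in either line, and the KO samples of both lines came to lie at similar levels, with means of 1.40 and 1.41. The fall of 1.25 in MDA-MB-231 (SE 0.08, adjusted p = 0.00513) left 31.2% of the control FPKM. The difference of 0.77 in MDA-MB-468 was not called (adjusted p = 0.0802), but it was after the GC correction and in 1 fit of all 12 samples. Between the lines the change differed by 2.02 ± 0.21, the widest such difference among the members (adjusted p = 0.000313).

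SEMA3C, whose receptors include both neuropilins, was at 3.96, 3.69 and 3.44 in MDA-MB-468 controls and 3.08, 2.73 and 2.91 in KO, and at 5.62, 5.46 and 5.20 in MDA-MB-231 controls and 5.30, 5.30 and 5.42 in KO. KO samples lay below the controls of MDA-MB-468 and among those of MDA-MB-231. The differences were -0.79 (adjusted p = 0.0562) and -0.08, and they differed between the lines by -0.71 ± 0.20 (adjusted p = 0.0339). SEMA3F had an adjusted p of 0.0334 in MDA-MB-468, with a difference of -0.43 that did not reach the limit. SEMA3E was 0.68 lower there with overlapping samples (adjusted p = 0.145), and SEMA3B differed by 0.07. SEMA3C was called lower in MDA-MB-468 with the filter on low values, in 1 fit of all 12 samples and after the GC correction.

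Of the neuropilin and plexin receptors, NRP2, PLXNA1 and PLXNA3 rose in MDA-MB-231. NRP2 (chr2:206546714-206662857) was at 3.47, 3.56 and 3.44 in the controls and 3.96, 4.14 and 3.92 in KO. PLXNA1 (chr3:126701536-126756232) was at 5.33, 5.72 and 5.49 in the controls and 6.10, 6.26 and 6.09 in KO. PLXNA3 (chrX:153686621-153706118), the plexin that pairs with NRP2, was at 4.42, 4.63 and 4.44 in the controls and 5.01, 5.22 and 5.04 in KO. In all 3 genes each KO sample exceeded each control, by a mean of 0.52 ± 0.07 (adjusted p = 0.0186) for NRP2, 0.64 ± 0.11 (adjusted p = 0.0273) for PLXNA1 and 0.59 ± 0.09 (adjusted p = 0.0195) for PLXNA3. The FPKM were 147%, 156% and 153% of the controls. As above, these calls were lost after the GC correction, with differences of 0.47, 0.48 and 0.46.

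In MDA-MB-468 none of these 3 receptors was called. NRP2 was at 3.33, 3.64 and 3.66 in the controls and 3.64, 3.80 and 3.90 in KO, PLXNA1 at 4.36, 4.47 and 4.58 against 4.40, 4.55 and 4.70, and PLXNA3 at 4.96, 4.51 and 4.68 against 4.54, 4.36 and 4.38. The groups overlapped for each. The change differed between the lines for PLXNA1 (-0.56 ± 0.15, adjusted p = 0.0331) and PLXNA3 (-0.88 ± 0.16, adjusted p = 0.00518), and not detectably for NRP2 (-0.28 ± 0.14, adjusted p = 0.208). NRP1, by contrast, was 0.49 lower in MDA-MB-468 KO with no overlap (adjusted p = 0.0814) and differed by -0.05 in MDA-MB-231. PLXNA2 and PLXND1 did not pass in either line.

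Class 4 semaphorins are membrane proteins, and SEMA4D binds PLXNB1. SEMA4A was at 10.30 FPKM in control MDA-MB-468 and 0.01 in control MDA-MB-231, while SEMA4B and SEMA4D were higher in MDA-MB-231. Among the receptors, PLXNB2 was the member with the most RNA in control MDA-MB-468, at 167.5 FPKM, against 65.21 in MDA-MB-231. PLXNB1 was at 32.23 and 3.28 FPKM, so that the SEMA4D receptor was higher where SEMA4D was lower. No class 4 or type B gene was called with KO in either line, and the differences ranged from -0.60 to 0.48. Under alternatives, SEMA4A was called lower in MDA-MB-468 in 1 fit of all 12 samples and without KO replicate 1. It was also called there with the GC correction and the replicate block together. SEMA4B was called higher in MDA-MB-231 with scaling to the 75th percentile and without KO replicate 3.

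SEMA4A (chr1:156117157-156147543) was at 3.65, 3.50 and 3.33 in MDA-MB-468 controls and 3.23, 2.74 and 2.72 in KO, and at 0.00, 0.01 and 0.03 against 0.00, 0.12 and 0.06 in MDA-MB-231. The KO samples lay below the controls where the gene was expressed, and the changes differed by -0.64 ± 0.18 (adjusted p = 0.0328), with both groups near 0 in MDA-MB-231. SEMA4B (chr15:90703836-90772911) was at 3.69, 3.63 and 3.63 against 3.63, 3.41 and 3.37 in MDA-MB-468, and at 4.79, 4.87 and 4.81 against 5.26, 5.51 and 5.13 in MDA-MB-231. It was higher in each KO sample of MDA-MB-231 by a mean of 0.48 (adjusted p = 0.0428), just short of the limit of 0.5, and the change differed between the lines by -0.66 ± 0.14 (adjusted p = 0.0115). SEMA4C, SEMA4D and SEMA4F did not pass in either line.

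SEMA6B (chr19:4542605-4581788), a transmembrane semaphorin that binds type A plexins, rose in MDA-MB-468. It was at 2.08, 2.26 and 2.26 in the controls and 3.33, 3.35 and 3.28 in KO. The KO samples stood well clear of the controls, with a difference of 1.13 ± 0.07 (adjusted p = 0.00885) and 251% of the control FPKM. In MDA-MB-231, where the gene started higher, it was at 3.70, 4.31 and 4.22 in the controls and 4.56, 4.73 and 4.28 in KO. These samples overlapped, and the difference of 0.45 did not pass (adjusted p = 0.189). The change narrowly missed the test between the lines (0.68 ± 0.21, adjusted p = 0.0516). It passed with a pseudocount of 0.1, the filter on low values, an intensity trend, quantile normalization and the GC correction. With scaling to the 75th percentile, with the replicate block and without most single samples it did not pass.

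SEMA7A (chr15:74701630-74726299), a semaphorin held by a lipid anchor that binds integrins and plexin C1, fell in MDA-MB-231. It was at 5.28, 4.91 and 4.89 in the controls and 3.78, 3.62 and 3.80 in KO. All KO samples were more than 1 log2 unit below the lowest control, and the fall of 1.30 (SE 0.12, adjusted p = 0.00817) left 38.6% of the control FPKM. In MDA-MB-468 it was at 2.35, 2.23 and 2.03 in the controls and 2.20, 2.62 and 2.57 in KO, which overlapped. The change differed between the lines by 1.55 ± 0.19 (adjusted p = 0.000704). The KO cells of MDA-MB-231 still had a higher mean, 3.73, than either group of MDA-MB-468, and the receptor gene PLXNC1 is not analysed here.

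Netrins and UNC5 receptors were expressed mainly in MDA-MB-468. NTN4, a netrin that binds laminin, was at 6.11, 6.11 and 6.03 in MDA-MB-468 controls and 2.18, 2.65 and 2.70 in MDA-MB-231 controls, a difference of 3.57 ± 0.12 (adjusted p = 3.24e-11). UNC5A and UNC5B were at 3.79 and 7.44 FPKM in MDA-MB-468 controls, while UNC5A was listed at 0 in all MDA-MB-231 controls and UNC5B averaged 0.11 there. NTN1 (chr17:8924827-9147317), the founding vertebrate netrin, rose in MDA-MB-468. It was at 1.86, 1.64 and 1.61 in the controls and 2.66, 2.59 and 2.75 in KO, without overlap. The difference was 0.97 ± 0.09 (adjusted p = 0.0145), which is 237% of the control FPKM. In MDA-MB-231 it stayed near 0, at 0.01, 0.03 and 0.03 against 0.03, 0.10 and 0.03, and the difference between the lines of 0.94 ± 0.10 (adjusted p = 0.000452) came from MDA-MB-468.

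The UNC5 receptors were not called. UNC5A differed by 0.27 (adjusted p = 0.119) and UNC5B by -0.0035 (adjusted p = 0.987) in MDA-MB-468 KO, and NTN4 by -0.03. UNC5B-AS1 was at 2.02, 1.88 and 1.79 in MDA-MB-468 controls and 2.49, 2.17 and 2.31 in KO, and listed at 0 in all 6 MDA-MB-231 samples. Its KO samples lay above the controls by 0.42 without a call (adjusted p = 0.0772), and the same 0.42 was the difference between the lines (adjusted p = 0.0331). It overlaps UNC5B on the opposite strand of chromosome 10, and since the strand setting of the counting is not given, reads of these genes cannot be told apart with certainty.

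SLIT2, ROBO3 and ROBO4 were expressed mainly in MDA-MB-231 and ROBO1 mainly in MDA-MB-468. SLIT2 (chr4:20253528-20622184), a secreted ligand for ROBO1, was listed at 0 in all 3 MDA-MB-468 controls and at 0.01, 0.00 and 0.14 in KO. In MDA-MB-231 it was at 3.55, 3.22 and 2.76 in the controls and 1.56, 1.58 and 1.80 in KO. The highest KO sample was almost 1 log2 unit below the lowest control, and the mean difference was -1.53 ± 0.20 (adjusted p = 0.0158), the steepest fall among the members. The KO samples kept 25.9% of the control FPKM. ROBO1 (chr3:78646389-79817148), its receptor, fell in the same cells from 1.81, 2.00 and 1.82 to 0.89, 1.15 and 1.38. These groups did not overlap, with a difference of -0.74 ± 0.13 (adjusted p = 0.0308) and 45.6% of the control FPKM.

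In MDA-MB-468 ROBO1 had a higher level, at 4.15, 4.35 and 4.47 in the controls and 5.06, 4.74 and 4.71 in KO. All KO samples lay above the controls by a mean of 0.52 that was not called (adjusted p = 0.0836). The rise was called with the filter on low values and in 1 fit of all 12 samples, and not after the GC correction. The change differed between the lines by 1.25 ± 0.19 for ROBO1 (adjusted p = 0.00212) and by 1.58 ± 0.21 for SLIT2 (adjusted p = 0.00118), the latter with almost no RNA in MDA-MB-468. ROBO1 and its ligand were thus inversely placed in the controls, with 19.10 FPKM of ROBO1 in the line where SLIT2 was listed at 0, and 2.68 in the line with 8.28 FPKM of SLIT2.

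ROBO3 and ROBO4 lie 2220 bp apart on opposite strands of chromosome 11 (chr11:124735328-124751367 and chr11:124753587-124768396). ROBO3, a divergent family member that modulates SLIT responses, was at 0.30, 0.41 and 0.30 in MDA-MB-468 controls and 1.20, 1.45 and 1.71 in KO. It rose in each KO sample, by 1.12 ± 0.13 (adjusted p = 0.0233) and from an average of 0.26 FPKM. In MDA-MB-231 it was at 4.03, 4.08 and 4.10 in the controls and 4.49, 4.38 and 4.16 in KO, above the controls by 0.27 without a call (adjusted p = 0.109), and the difference between the lines was 0.85 ± 0.17 (adjusted p = 0.00789). ROBO4, known from endothelial cells, was at 0.00, 0.00 and 0.03 in MDA-MB-468 controls and 0.11, 0.18 and 0.55 in KO. In MDA-MB-231 it was at 3.97, 3.51 and 3.35 in the controls and 3.32, 3.17 and 2.91 in KO. KO samples lay above the controls in the first line and below them in the second, no change was called, and the difference between the lines of 0.75 ± 0.23 only just passed (adjusted p = 0.0471). The control lines differed by -3.74 ± 0.12 for ROBO3, -3.60 ± 0.16 for ROBO4 and -3.18 ± 0.15 for SLIT2, the 3 members most in excess in MDA-MB-231 on this scale.

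**Figure D3:**
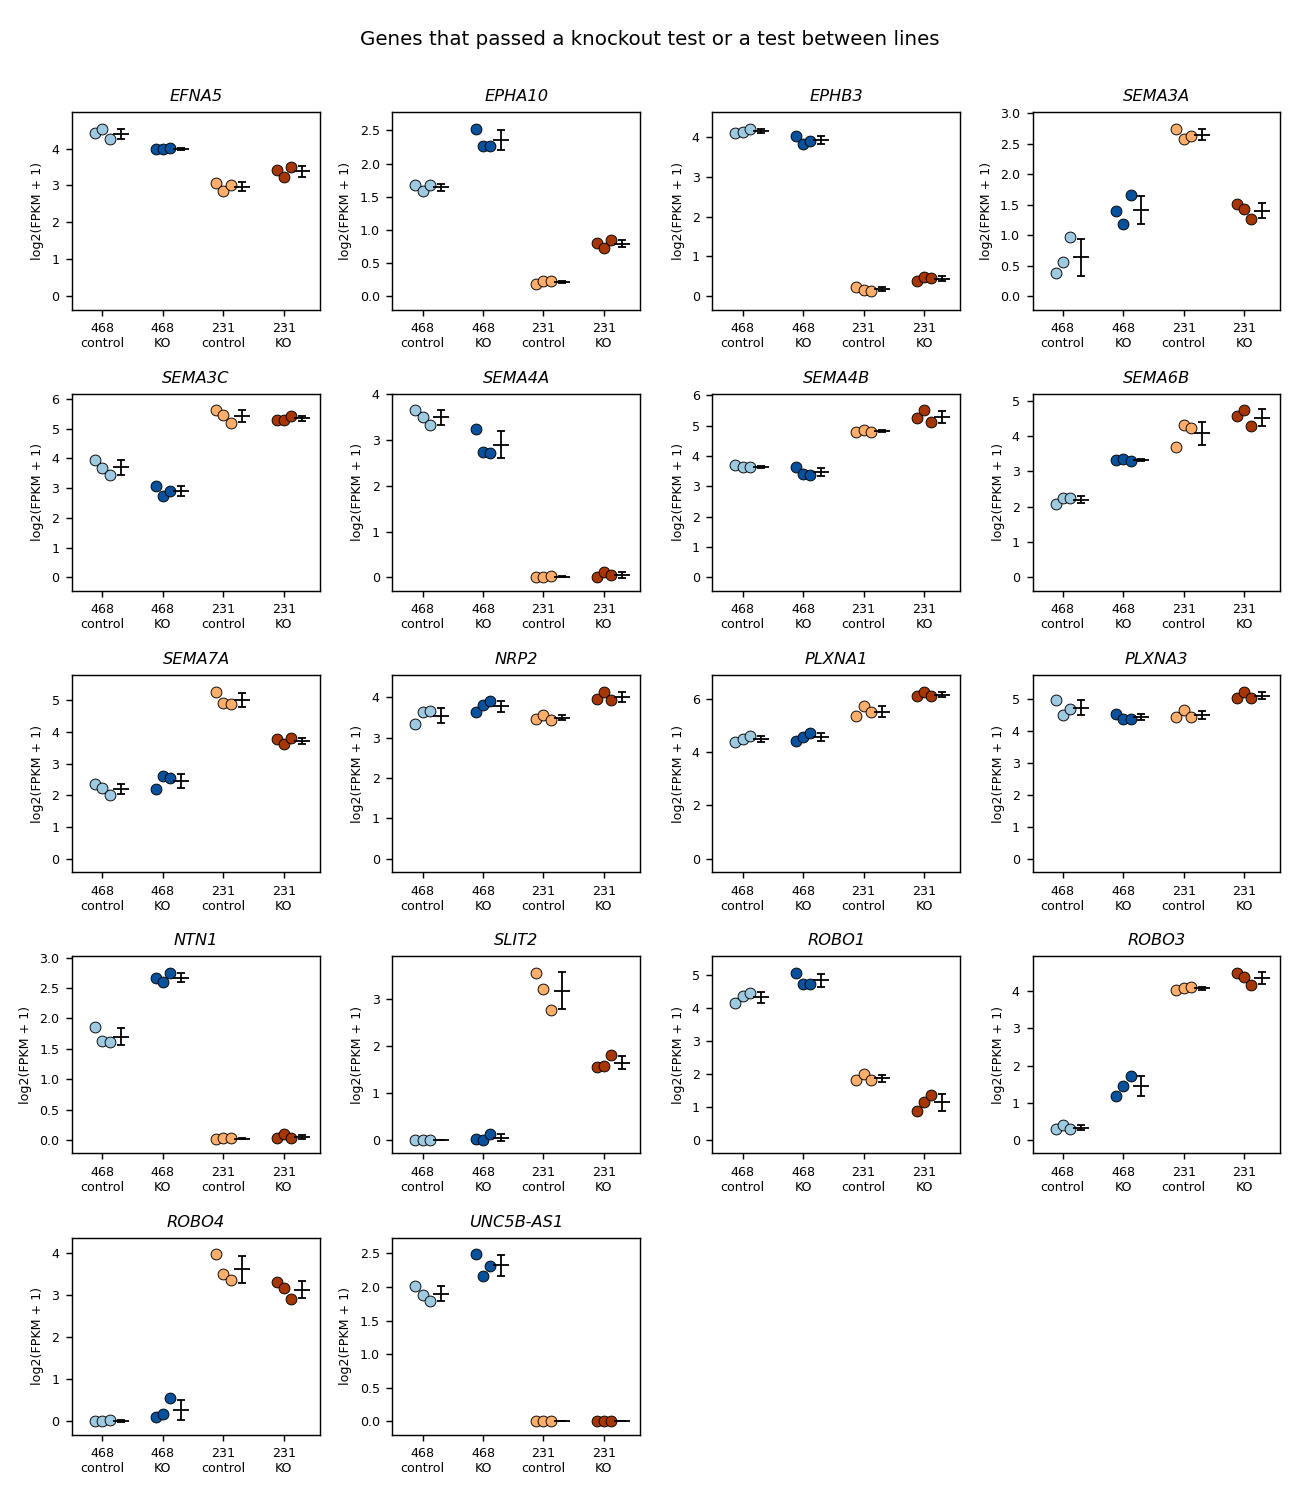
Level of the 18 genes that passed a KO test or the test between lines, on the log2(FPKM + 1) scale, with a point per sample and the mean with SD beside each group of 3. SEMA3A and ROBO1 are lower in MDA-MB-231 KO and higher in MDA-MB-468 KO, which brings the lines to similar levels of SEMA3A (means of 1.41 and 1.40) and further apart in ROBO1 (4.84 and 1.14).

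RGM proteins bind neogenin and act as co-receptors for bone morphogenetic proteins. RGMB was at 35.34 FPKM in control MDA-MB-231 and 6.87 in control MDA-MB-468, and RGMA at 2.04 FPKM in the latter and near 0 in the former. RGMB was 0.68 lower in MDA-MB-231 KO, without overlap between the groups, and narrowly missed the threshold (adjusted p = 0.0561). UNC50, the Golgi gene that matched by name, differed by -0.06 and -0.12 with KO and by 0.04 between the controls.

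Between the lines, the KO change differed for 15 of 48 members at an adjusted p under 0.05 for the interaction term, with no limit on its size. Of these, 8 moved more upward in MDA-MB-468 (16.7% of members, where 7.91% of all genes did) and 7 more upward in MDA-MB-231 (14.6%, where 6.83% did). The upward set held all 3 ROBO genes, SLIT2, NTN1, SEMA3A, SEMA7A and UNC5B-AS1, and the other set held PLXNA1, PLXNA3, SEMA3C, SEMA4A, SEMA4B, EFNA5 and EPHB3. The calls of SEMA3A, SEMA7A, SLIT2 and ROBO1 held under each alternative and without any 1 of the 12 samples. Those of ROBO4, SEMA4A, UNC5B-AS1 and SEMA3C were lost without most single samples, and PLXNA1 without 8 of them.

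The control lines themselves differed for 40 of 48 members. Of these, 24 were higher in MDA-MB-468 (50% of members, where 32.8% of all genes were) and 16 in MDA-MB-231 (33.3%, where 31.4% were), and the latter share is close to that of all genes. Genes were kept only with an FPKM SD of at least 1 over the samples of both lines, which favours genes that differ between them. Members with almost no RNA in MDA-MB-468, such as SLIT2 and ROBO4, were kept through their level in MDA-MB-231. The filter applied to all genes alike, and how far it raised the count of 40 was not tested. With UNC5B-AS1 set aside, the genes higher in MDA-MB-468 were 12 ligands and 11 receptors, and those higher in MDA-MB-231 were 9 ligands and 7 receptors. The 8 genes without a call were EFNB2, EPHA4, SEMA4C, SEMA4F, NRP2, PLXNA3, PLXNB3 and UNC50. The KO and the control comparisons share the control samples, and so their values stand side by side here without a test of their relation.

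**Figure D4:**
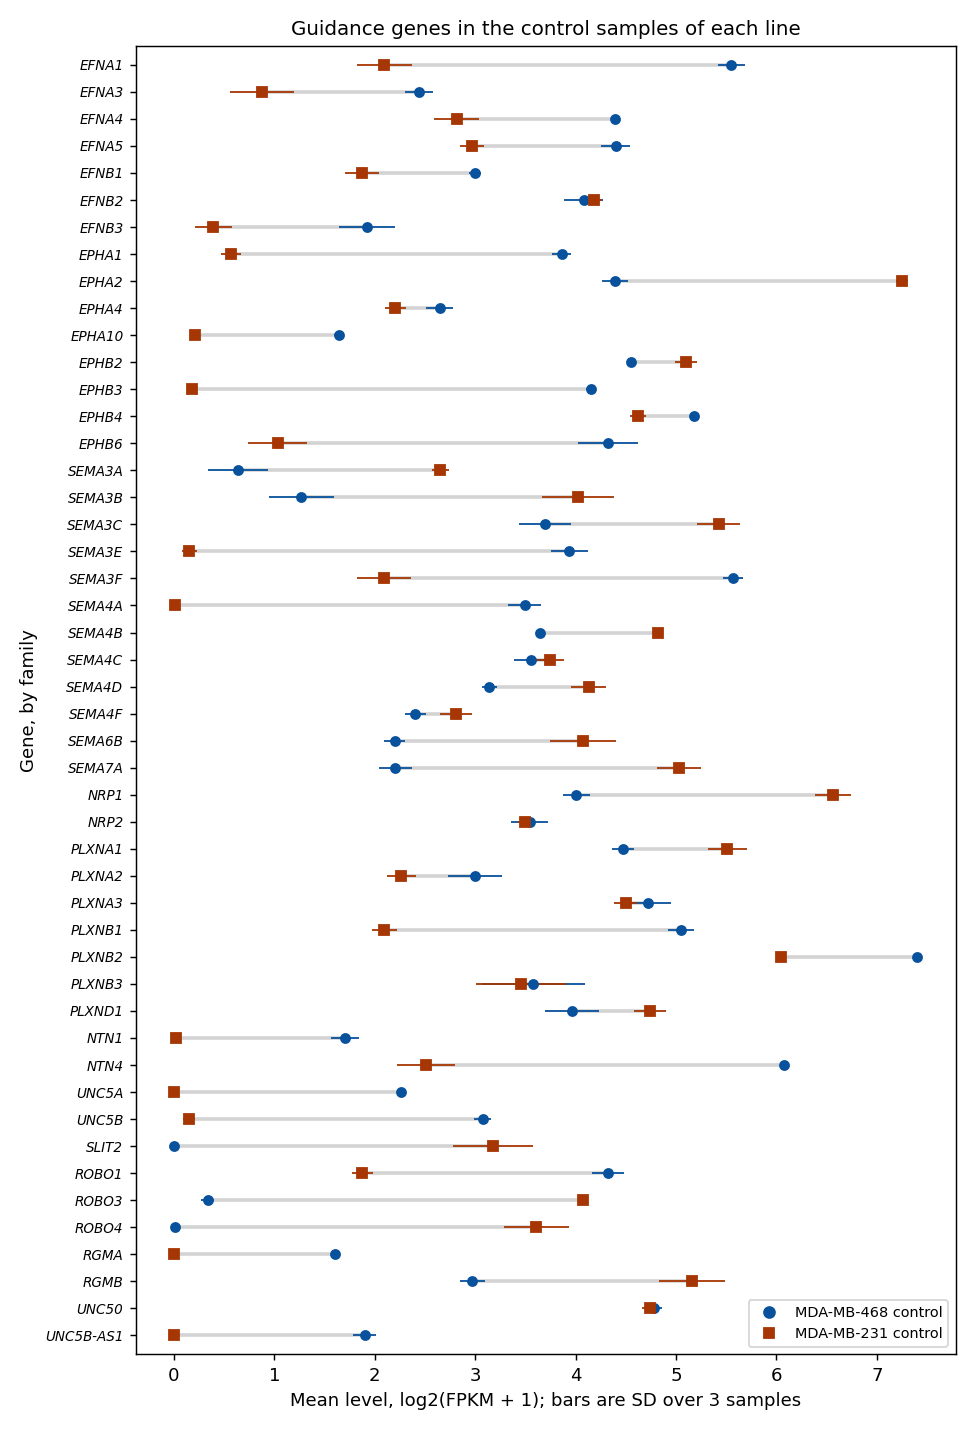
Mean level of each member in control MDA-MB-468 (circles) and control MDA-MB-231 (squares) on the log2(FPKM + 1) scale, with SD bars over 3 samples and a grey line between the lines. EPHB3, SEMA3E and NTN4 lie furthest to the right in MDA-MB-468, and ROBO3, ROBO4 and SLIT2 in MDA-MB-231, relative to the other line.

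Other genes of guidance signalling, a list of 75 co-receptors and effectors of which 58 were analysed, had 2 calls with KO in each line. In MDA-MB-468, 2 of 58 rose and 0 fell, where 1.33% and 0.815% of all genes did. DPYSL2, a collapsin response mediator that acts below SEMA3A, rose by 0.71 (adjusted p = 0.0145), and GPC1, a heparan sulphate proteoglycan that binds SLIT, by 0.64 (adjusted p = 0.0451). In MDA-MB-231, 0 rose and 2 fell, where 2.39% and 1.31% of all genes did. These were CXCR4, a chemokine receptor, which fell by 2.38 (adjusted p = 0.00295), and FYN, a kinase used by netrin and semaphorin receptors, which fell by 0.51 (adjusted p = 0.0331). CXCR4 was at 4.16, 4.09 and 4.23 in the controls of that line and 1.76, 1.58 and 2.01 in KO, and near 0 in MDA-MB-468. The KO change differed between the lines for 9 of the 58, where 7.91% of all genes passed in one direction and 6.83% in the other. The median difference over the 58 genes was -0.01 and 0.03. The axon guidance pathway that the study listed from these same samples holds some of the members, so that it is no independent evidence of their direction.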

How the data were processed

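RNA-seq libraries were made with the TruSeq Stranded mRNA kit per the labels. After trimming with Trimmomatic, the authors aligned the reads to hg19 with STAR, had RSEM estimate FPKM, and dropped each gene whose FPKM averaged or varied (SD) less than 1. The deposited values are log2(FPKM + 1) for 11529 genes in 12 samples, whose read depth is unknown. On this scale the change of low genes is understated. The strand setting of the counting is not given in the sources used here.

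Genes were selected by symbol pattern. The members and lists were chosen with earlier results of these data known. KO was compared with control within each line by limma 3.58.1 in R 4.3.3 on these values, using lmFit and the default eBayes and no further filter. A gene was a DEG when its p, adjusted over the 11529 genes by Benjamini-Hochberg, was under 0.05 and its log2 fold change over 0.5 in size. The lines were compared in 1 fit of 12 samples, with an interaction term (adjusted p under 0.05). All members were to be described, with each sample's value for those called with KO or by the interaction and for the 3 with the widest control difference each way, and of the effectors only DEGs were named.

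Same-numbered MDA-MB-468 samples deviated together (correlations of 0.254, 0.161 and 0.119), where the number comes from the sample titles, and those of MDA-MB-231 did not (-0.054, 0.074 and -0.115). Symbols of 94.6% of genes and all 48 members were matched to GENCODE on GRCh37, for positions, GC content and length. The fits were tested on simulated data. Alternatives were a pseudocount of 0.1, a mean log2 value over 2, an intensity trend, 1 fit of all samples, a fold limit of 1, scaling to the 75th percentile, quantile normalization, replicate blocks, leaving out each sample and, added after the data were seen, a loess correction (span 0.3) for GC content and length and an interaction difference over 0.5. Promoter motifs were searched with Python 3.11.15, the TATA-like letters having been widened after the sequences were seen, and figures were drawn with matplotlib 3.10.9.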

Additional observations from a re-analysis of the deposited data

Results flagged for a closer look

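These 15 genes were picked out because the change with SMARCA4 KO differed between MDA-MB-468 and MDA-MB-231 by the interaction test of limma (adjusted p under 0.05). Values are the change in MDA-MB-468 minus that in MDA-MB-231, on the log2(FPKM + 1) scale. The change was more upward in MDA-MB-468 for SEMA3A (2.02), SLIT2 (1.58), SEMA7A (1.55), ROBO1 (1.25), NTN1 (0.94), ROBO3 (0.85), ROBO4 (0.75) and UNC5B-AS1 (0.42). It was more upward in MDA-MB-231 for PLXNA3 (-0.88), EFNA5 (-0.83), SEMA3C (-0.71), SEMA4B (-0.66), SEMA4A (-0.64), PLXNA1 (-0.56) and EPHB3 (-0.49). In 5 of these genes (SLIT2, NTN1, ROBO4, SEMA4A and UNC5B-AS1) all controls of 1 line were at 0.03 or below on this scale.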

How the results depend on the processing

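Over 33 pairs of a named gene and a comparison, 598 values were computed under the alternatives, of which 472 kept their call, 126 lost it and 0 changed direction. The pairs were picked because they were called, and those removed by the filter on low values were not counted. An intensity trend, 1 fit of all samples, a fold limit, a replicate block and the filter leave the difference itself unchanged. No change of direction was possible under these. Of the 4 member DEGs of MDA-MB-468, all higher, a fit of all 12 samples gave 10 (7 higher and 3 lower), a fold limit of 1 gave 2, a block by the p number of the sample descriptions gave 0 (18 members and 2218 genes at an unadjusted p under 0.05 in limma), the GC and length correction with the replicate block gave 9 (6 higher and 3 lower) and without it 6 (5 and 1), the filter on low values gave 4 (3 and 1, with 2 of the 4 kept), and leaving out 1 sample gave 0 to 7 (the 7 being 5 higher and 2 lower); the replicate block gave 5, which kept the 4, and changed no other call. Of the 8 of MDA-MB-231, a fold limit of 1 gave 3, the GC and length correction 5, all lower, leaving out 1 sample 3 to 7, and the replicate block, where the numbers are not shown to pair the samples, 0 (19 members and 3126 genes at an unadjusted p under 0.05). The 15 interaction calls became 4 with a limit of 1, 18 with the replicate block and 10 to 20 without 1 sample, and the 40 control differences ranged from 27 to 41. Over all genes, the 247 DEGs of MDA-MB-468 became 400 with the filter on low values, 537 in 1 fit, 53 with a limit of 1, 0 with the p number block, 379 and 490 with the GC correction without and with the block, and 0 to 474 without 1 sample. The 426 of MDA-MB-231 became 85 with a limit of 1, 0 with the replicate block and 99 to 311 without 1 sample. The 1699 interaction genes became 217 with a limit of 1 and 1004 with a limit of 0.5, and the 7397 control differences 4148 with a limit of 1. With scaling to the 75th percentile, 42.8% of the interaction genes were more upward in MDA-MB-468 in place of 53.7%, and 7 against 8 members in place of 8 against 7. Where a call was lost the cause was not tested, except that a stricter limit on the fold change lowers a count by construction. Leaving out 1 sample lowered some counts and raised others. Without read depth, the precision of values near 0 FPKM is not known.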
